A study of Rattus norvegicus with 60 samples.

Results

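The cortex of rats that had received only a vehicle was compared between the 2 ways in which the vehicle was given. The samples were the 10 vehicle arrays of the cortex, out of 60 arrays in the series, and they were chosen by their titles alone. The first group was the injection vehicle group, 5 arrays from rats injected under the skin each day for 21 days with the vehicle of lamotrigine. The second was the chow vehicle group, 5 arrays from rats that ate vehicle chow for the same 21 days, as the comparator of LiCl given at 0.2% in the chow. All rats were of the strain given as SD, and the labels give no age, sex or composition of the injected vehicle. The series also holds lamotrigine (30 mg/kg by injection) and LiCl groups, and the same 4 treatments in the hippocampus and striatum, with 5 arrays per group. One label field speaks of mouse brain and another of constant delivery; rat and a daily injection, as in the organism field and the design text, were taken as right. The sample descriptions carry a different number for each of the 10 arrays, read here as 10 animals, and no other label speaks of separate rats, so p-values measure only the spread between these samples. Each vehicle was given in 1 arm only, so the route, the handling and any batch of the arms cannot be told apart. In this tissue RNA a smaller number of cells of a type and less RNA per cell cannot be told apart either.

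Neither group received a drug, so the comparison shows which RNA levels separate the arms in the absence of a drug. Daily handling and injection are known to engage the adrenal stress response, in which corticosterone acts through the glucocorticoid receptor on genes such as Sgk1, Per1, Tsc22d3 and Fkbp5. Neuronal activity induces immediate early genes such as Fos and Arc within minutes, and unfolded protein in the endoplasmic reticulum raises its chaperones through the factors Atf6 and Xbp1. RNA levels in the cortex also follow the time of day, through the clock factors of the Per, Cry, Nr1d and Ror families.

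Each gene is measured by 1 or more probe sets, which are groups of short DNA probes matched to a stretch of its transcript. Levels are log2 intensities, and changes are injection vehicle minus chow vehicle on the log2 scale with the SE of the fit. The word called is used of a probe set whose limma p, adjusted over 31042 probe sets, was under 0.05, and "rose" and "fell" are used only of called values. The labelled tissue was checked against defining markers in the vehicle arrays. Slc17a7, the vesicular glutamate transporter of cortical and hippocampal neurons, had a median log2 level of 11.7 in the cortex (11.6 to 11.8) against 6.56 in the striatum (5.15 to 8.98). Drd1, the dopamine receptor of striatal neurons, had a median of 6.94 in the cortex (5.68 to 7.32) against 12.02 in the striatum (11.86 to 12.15). Prox1, a dentate gyrus marker, had a median of 6.601 in the cortex (6.41 to 6.87) against 9.32 in the hippocampus (9.03 to 9.81). The ranges did not overlap for any of the 3 pairs.

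Some arrays and control measures stood apart before any gene was considered. The mean log2 level of the 18 hybridisation control probe sets, which measure RNA added just before hybridisation, was 9.37, 10.92, 11.02, 11.23 and 11.08 in injection vehicle arrays 1 to 5, against 11, 11.36, 11.16, 11.18 and 12.28 in chow vehicle arrays 1 to 5. Injection vehicle array 1 was lowest and chow vehicle array 5 highest. The means were 10.72 ± 0.767 in injection vehicle and 11.40 ± 0.512 in chow vehicle (SD, n = 5 each), a difference of -0.672 (exact permutation test, two-sided, p = 0.0794, adjusted p = 0.111 over 7 measures). Poly-A spike-ins averaged 7.51 ± 0.143 in injection vehicle and 7.77 ± 0.287 in chow vehicle (SD, n = 5 each, exact permutation p = 0.0952). The 3' minus 5' difference of Actb, which grows as RNA is degraded, was 1.45 ± 0.158 in injection vehicle and 1.27 ± 0.105 in chow vehicle (SD, n = 5 each, exact permutation p = 0.0714), while that of Gapdh was 0.0198 ± 0.0418 in injection vehicle and 0.0726 ± 0.0416 in chow vehicle (SD, n = 5 each, exact permutation p = 0.0794). The interquartile range of log2 values was 3.535 ± 0.0248 in injection vehicle and 3.576 ± 0.0223 in chow vehicle (SD, n = 5 each, exact permutation p = 0.0317, the smallest of the 7). The median log2 level was 6.644 ± 0.009 in injection vehicle and 6.602 ± 0.0357 in chow vehicle (SD, n = 5 each, exact permutation p = 0.0556). None of the 7 measures passed after adjustment, and the smallest p that 5 against 5 arrays allow is 0.00794. The hybridisation controls were also lower in the injection arm elsewhere, with means of 10.77 in injection vehicle and 11.05 in chow vehicle hippocampus, 10.85 in injection vehicle and 11.39 in chow vehicle striatum, and 10.87 in lamotrigine and 11.12 in LiCl cortex. The hybridisation controls moved with the arm, and the count of calls over all probe sets with them as a covariate is given with the main count. Array to array correlations over all probe sets were 0.992 to 0.995 within the groups and 0.987 to 0.992 between them, and no 2 arrays held the same values.

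**Figure D1:**
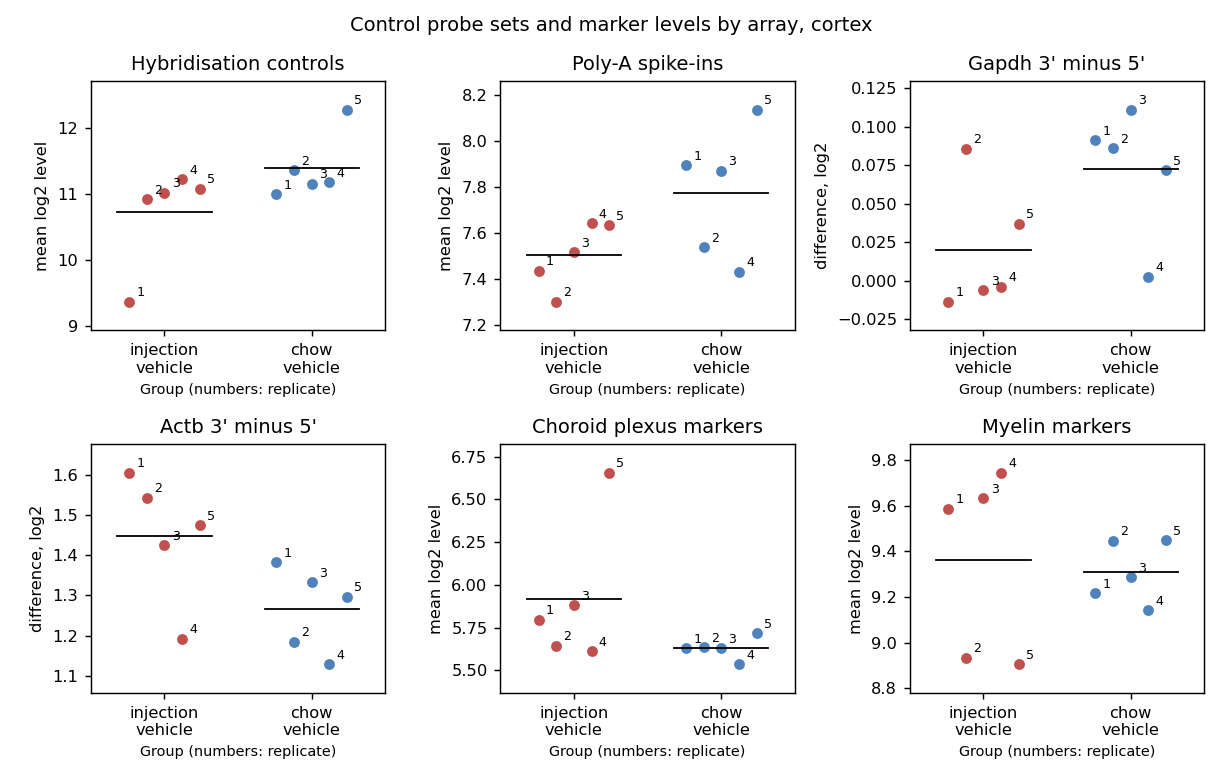
Control and marker levels of the 10 vehicle arrays of the cortex, with injection vehicle left and chow vehicle right in each panel, points for arrays with their replicate number, and a line at the group mean. The y axes are mean log2 levels, or a log2 difference for the 3' minus 5' panels. Injection vehicle array 1 has the lowest hybridisation controls (9.37) and injection vehicle array 5 the highest choroid plexus markers (6.66).

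The arms differed over a wide set of probe sets, mostly by little. Of the 31042 tested, 5875 were called (18.9%), with 2769 higher (8.92%) and 3106 lower (10%) in injection vehicle. The median absolute change of the called probe sets was 0.335, and 113 of them changed at least 2-fold, 87 higher and 26 lower. For 4170 probe sets (13.4%) the 5 injection vehicle values lay all above or all below the 5 chow vehicle values, and 3666 of these were called. The share called was 9.87% among probe sets with a mean log2 level under 6, 21.5% from 6 to 8, 29.3% from 8 to 10 and 28.1% above 10. Under 8, more were called higher than lower (734 against 532 under 6, and 1067 against 845 from 6 to 8). From 8 to 10 the balance was the other way, with 704 higher and 1304 lower. The split between directions depended on the scaling: with each array centred on its own median, 7061 were called, 2225 higher and 4836 lower. With the hybridisation controls as a covariate, an alternative chosen after seeing the data, 4059 were called, 2229 higher and 1830 lower, so that the larger share was higher in place of lower, and without injection vehicle array 1 and chow vehicle array 5, also chosen after seeing the data, 4256 were called (2272 higher and 1984 lower).

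The largest changes were those of single probe sets, and the gaps between the arms varied. The 12 largest rises were those of Camk2a, Xiap, Peli2, Tbl1x, Kitlg, Oip5-as1, Ro60, Aff4, Ralgapa1, Nr1d2, Cpsf6 and Ptprd, by 1.25 to 1.79. The 12 largest falls were those of Nipsnap2, Pik3r1, Dedd, Huwe1, Bod1l1, Ccdc25, Rnf6, Lsm14b, Dync1li1, LOC100911253, Ints7 and Pkp4, with changes of -1.69 to -1.07. They were picked for the size of the change among probe sets whose groups do not overlap, so their gaps are a description. All 24 kept their call in every alternative that tested them. The plot of the 24 genes by array shows these gaps.

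**Figure D2:**
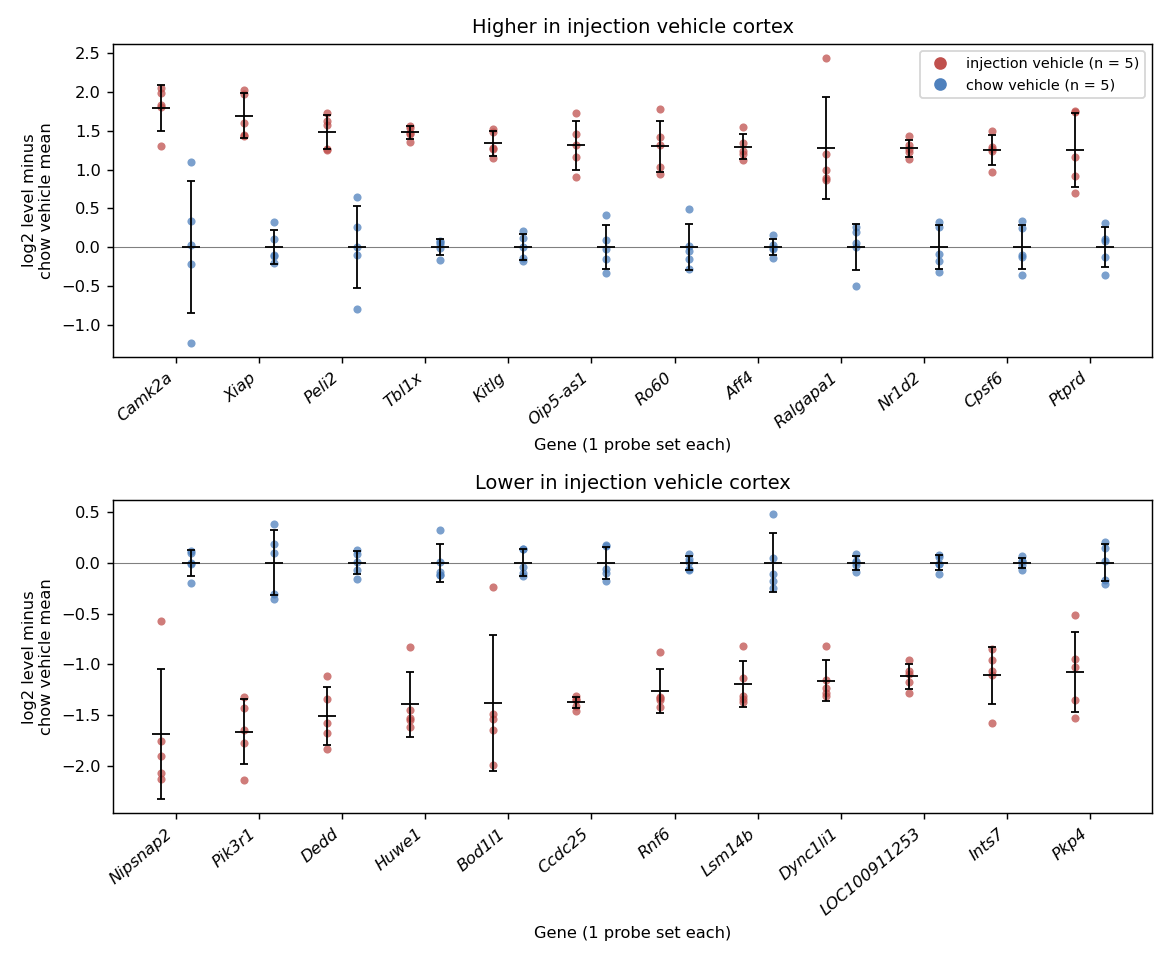
Log2 level of each array minus the chow vehicle mean for the 12 largest rises (upper panel) and 12 largest falls (lower panel), with injection vehicle points left of chow vehicle points and bars for the mean ± SD (n = 5 each). The groups do not overlap for any of the 24 probe sets. Chow vehicle arrays spread most for Camk2a, and injection vehicle array 4 lies nearest to the chow vehicle arrays for Nipsnap2 and Bod1l1.

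Camk2a, the main subunit of the calcium/calmodulin kinase of excitatory synapses, had log2 levels of 11.93, 12.10, 11.95, 11.42 and 12.17 in injection vehicle arrays, against 9.90, 10.14, 11.22, 8.88 and 10.46 in chow vehicle arrays. The lowest injection vehicle array lay just above the highest chow vehicle array. The change was 1.79 ± 0.37 (3.47-fold, limma adjusted p = 0.00133). The other 3 probe sets of Camk2a had changes of 0.38, 0.22 and 0.18 and none was called (limma adjusted p = 0.0617, 0.255 and 0.38).

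Xiap, an inhibitor of caspases, had levels of 6.73, 6.195, 6.37, 6.79 and 6.21 in injection vehicle arrays, against 4.67, 4.55, 4.87, 4.64 and 5.09 in chow vehicle arrays (change 1.70 ± 0.15, 3.24-fold, limma adjusted p = 1.02e-07). Its second probe set, which was brighter, rose by 0.38 ± 0.08 (limma adjusted p = 0.00139). No array overlapped on either probe set, and the size of the change differed between them. Tbl1x, part of a nuclear receptor corepressor complex, had the smallest SE of the 24, with 7.03, 6.92, 7.10, 7.12 and 7.02 in injection vehicle arrays, against 5.39, 5.55, 5.64, 5.60 and 5.62 in chow vehicle arrays (change 1.48 ± 0.07, 2.79-fold, limma adjusted p = 1.92e-11). This is the value of 1 probe set, and another probe set of Tbl1x fell by 0.64 ± 0.11 (limma adjusted p = 0.000267).

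Among the falls, Nipsnap2, a mitochondrial protein, had 5.66, 5.43, 5.80, 6.99 and 5.49 in injection vehicle arrays, against 7.55, 7.66, 7.68, 7.36 and 7.56 in chow vehicle arrays. Injection vehicle array 4 was the one close to the chow vehicle range. The change was -1.69 ± 0.20 (3.22-fold lower, limma adjusted p = 2.87e-06). Pik3r1, the regulatory subunit of phosphoinositide 3-kinase, had 6.76, 6.27, 6.98, 7.09 and 6.63 in injection vehicle arrays, against 8.05, 8.79, 8.51, 8.59 and 8.10 in chow vehicle arrays (change -1.66 ± 0.26, 3.17-fold lower, limma adjusted p = 9.61e-05). It has 1 probe set with its symbol, so no further reading of the gene was made. The ubiquitin ligases Huwe1 and Rnf6 fell by 1.39 ± 0.13 and 1.26 ± 0.14 on the log2 scale, and Dync1li1, a light intermediate chain of the dynein motor, fell by 1.16 ± 0.10 on one probe set. The brighter probe set of Dync1li1 had a change of 0.13 ± 0.06 and was not called (limma adjusted p = 0.154).

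Several probe sets of one gene often gave different readings. Among the 24 genes, 20 had a further probe set: in 11 at least 1 of these was called in the same direction, in 5 at least 1 was called in the opposite direction, and in 5 none was called, with Aff4 counted in both of the first groups. Nr1d2, a clock repressor of the nuclear receptor family, rose on all 3 of its probe sets, by 1.27 ± 0.11, 0.71 ± 0.07 and 0.43 ± 0.06. Ptprd, a receptor phosphatase of synapses, also rose on all 3, by 1.25 ± 0.23, 0.38 ± 0.07 and 0.27 ± 0.06. Oip5-as1, a long noncoding RNA, rose by 1.31 ± 0.15 on one probe set, fell by 0.36 ± 0.12 on another and had a change of -0.01 ± 0.05 on the brightest. Huwe1 fell by 1.39 ± 0.13 on one and rose by 0.40 ± 0.11 on another, and Dedd, which fell by 1.51 ± 0.17 on one, had a change of 0.01 ± 0.13 on its brighter probe set.

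Over the whole array, 4525 genes had 2 or more probe sets with 1 symbol, and 1942 of them had at least 1 call. In 531 genes 2 or more probe sets were called: in 403 of these (75.9%) all calls had 1 direction, 268 higher and 135 lower, and in 128 (24.1%) the calls went both ways. All probe sets were called in 1 direction for 162 genes, 91 higher and 71 lower. Of the 930 genes with exactly 2 probe sets and 1 call, the uncalled probe set had the sign of the called one in 594 (63.9%), beside 59.3% same-sign pairs over all 3061 genes with 2 probe sets. The direction went with the brightness of the probe set. In genes with 2 probe sets, the brighter was called higher in 204 and lower in 421, while the dimmer was called higher in 426 and lower in 219. Taking the brightest probe set of each of the 14217 genes, 2640 were called (18.6%), 733 higher (5.16%) and 1907 lower (13.4%), with a median change of -0.0432 over all genes. The 6609 dimmer probe sets of the same genes gave 1648 calls, 1138 higher and 510 lower, with a median change of 0.0306. Brightness is a property of the probes as well as of the RNA and does not rank abundance.

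**Figure D3:**
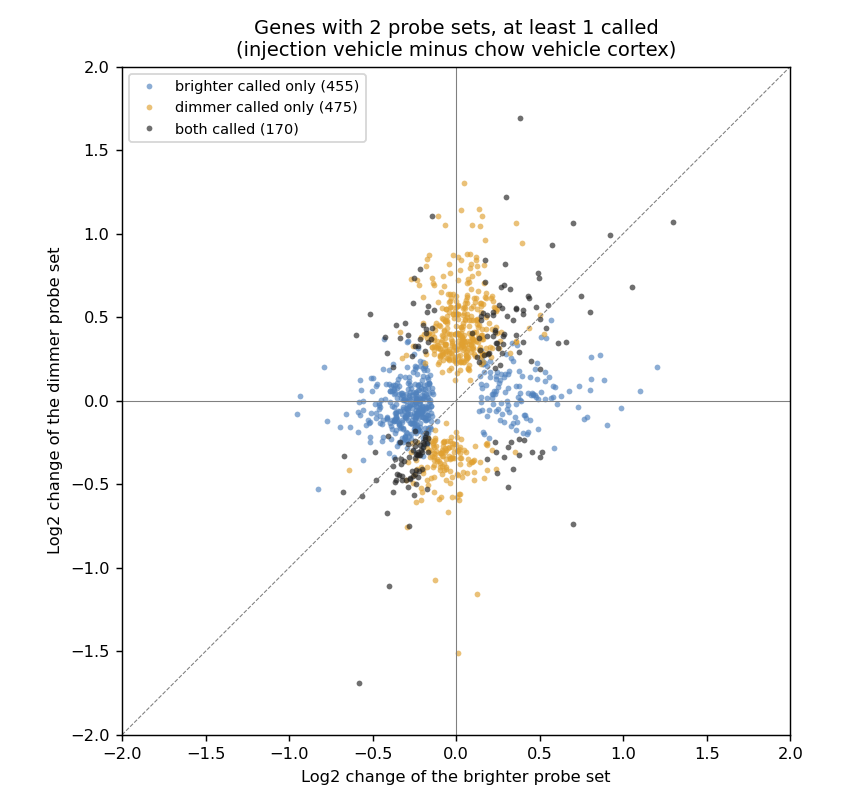
Log2 change (injection vehicle minus chow vehicle) of the brighter probe set on the x axis and of the dimmer on the y axis, for the 1100 genes with exactly 2 probe sets and at least 1 call. Points on the dashed line would have equal changes; 455 genes were called on the brighter only, 475 on the dimmer only and 170 on both, 127 of these in the same direction and 43 in opposite directions.

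Some genes had every probe set called in 1 direction, 2 or more in number, and those of largest median change are given here. Among the rises, Ro60, an RNA-binding autoantigen, had 6.11, 5.28, 5.65, 5.75 and 5.36 in injection vehicle arrays, against 4.04, 4.34, 4.83, 4.17 and 4.27 in chow vehicle arrays on one probe set (change 1.30 ± 0.16, limma adjusted p = 4.38e-06). The groups also did not overlap on the other (change 1.07 ± 0.20, limma adjusted p = 0.000705). Grm5, a metabotropic glutamate receptor, rose by 0.99 ± 0.16 and 0.92 ± 0.18, Calcrl, a receptor for calcitonin family peptides, by 1.06 ± 0.11 and 0.70 ± 0.12, and the secretory GTPase Rab27b by 0.68 ± 0.13 and 1.05 ± 0.16. Zbtb6 rose by 1.22 ± 0.14 and 0.30 ± 0.09, with overlapping groups on the second.

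Among the falls on every probe set, Cirbp, an RNA-binding protein induced by cold, had 7.62, 7.74, 8.004, 7.65 and 7.77 in injection vehicle arrays, against 8.26, 8.32, 8.24, 8.44 and 8.44 in chow vehicle arrays. No array crossed the gap on any of its 3 probe sets, whose changes were -0.58 ± 0.09, -0.58 ± 0.14 and -0.34 ± 0.08. The ubiquitin factor Ube4b fell by 0.57 ± 0.07 and 0.56 ± 0.06, Ints7, a subunit of the Integrator complex, by 1.11 ± 0.11 and 0.40 ± 0.08, Fam171a2 by 0.67 ± 0.10 and 0.41 ± 0.08, and Nipsnap2 by 1.69 ± 0.20 and 0.58 ± 0.08.

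In other genes probe sets with changes of like size went opposite ways. Gnb1, a G protein beta subunit, had 11.85, 12.09, 11.96, 12.04 and 12.43 in injection vehicle arrays, against 10.99, 11.10, 11.68, 11.68 and 10.84 in chow vehicle arrays on one probe set (change 0.82 ± 0.17). A second gave 11.33, 11.79, 11.87, 11.74 and 11.49 in injection vehicle arrays, against 12.33, 12.30, 12.08, 11.97 and 12.37 in chow vehicle arrays (change -0.56 ± 0.09), and the last fell by 0.84 ± 0.13. The groups did not overlap on any of the 3. Cbx1, a heterochromatin protein, rose by 1.00 ± 0.10 on one and fell by 0.81 ± 0.10 on another, and Herc1, a large ubiquitin ligase, rose by 0.70 ± 0.08 and fell by 0.74 ± 0.15. Tbl1x, Mphosph8 and Marcks also had calls in both directions. The files do not say which transcript each of these probe sets reads, so each direction given for these genes is that of a single probe set.

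Functions were described with 32 lists of genes and cell type markers, taking for each gene its brightest probe set, beside the shares over all genes of 5.16% higher and 13.4% lower. Of the 724 list genes, 144 were called, 72 higher and 72 lower. The calls of a list are those of the brightest probe sets only. Of the 144, 57 have a further probe set and 9 had one called in the opposite direction (Aqp4, Cyp51, Dusp6, Foxp1, Gabrb2, Grip1, Hlf, Kcnab1 and Psmd11), and of the 580 genes not called, 49 had a call on another probe set. The plot of the calls in each list shows the counts.

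**Figure D4:**
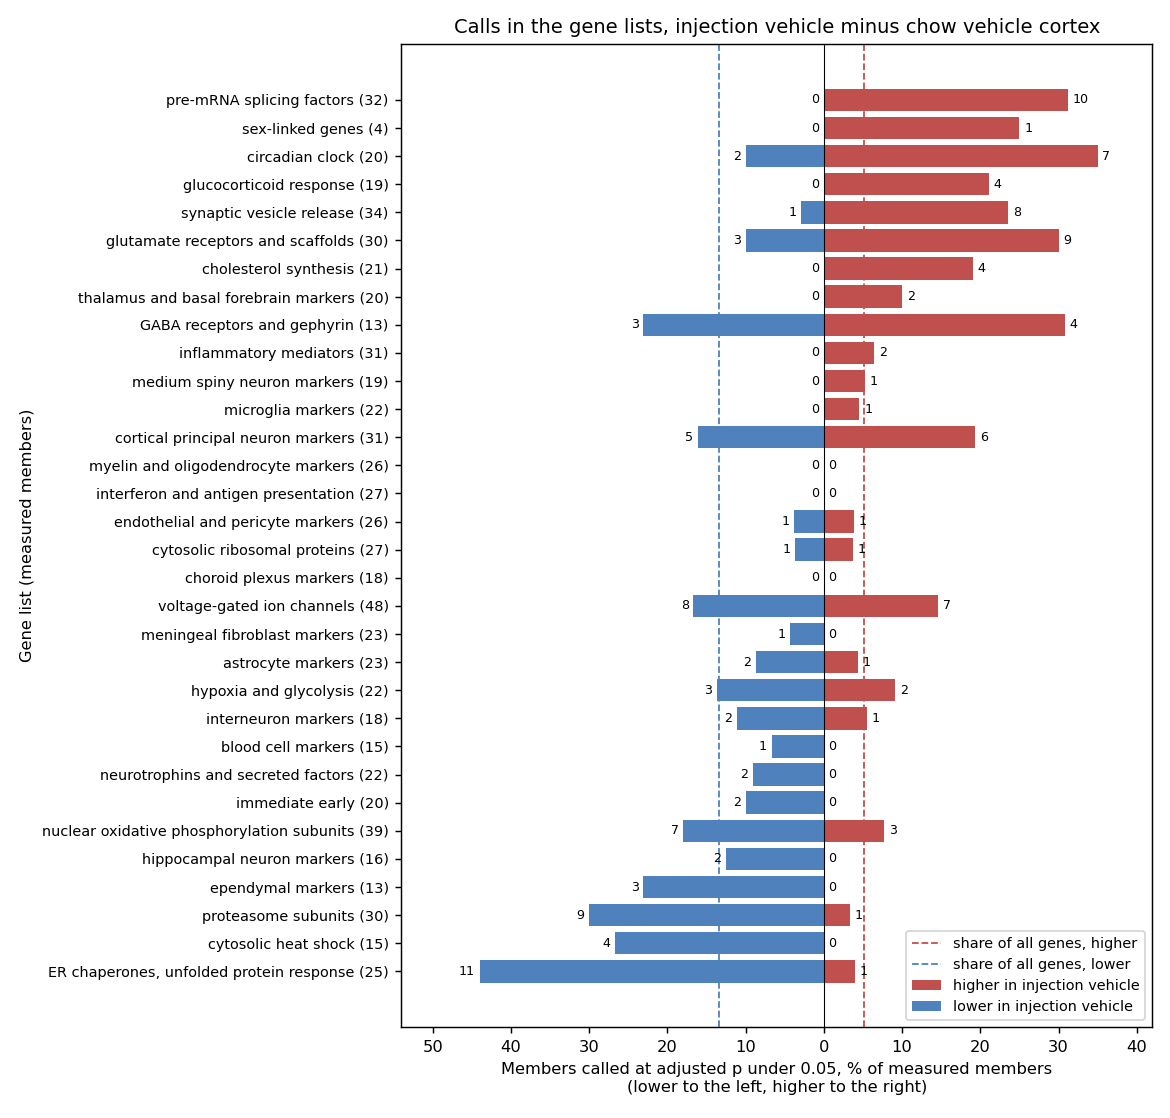
Share of the measured members of each list called at an adjusted p under 0.05, lower in injection vehicle to the left and higher to the right, as % of measured members; numbers at the bars are counts and dashed lines mark the shares over all genes (5.16% higher and 13.4% lower). Clock genes (7 of 20 higher), splicing factors (10 of 32) and glutamate receptors (9 of 30) have long bars to the right, and endoplasmic reticulum chaperones (11 of 25 lower) have the longest bar to the left.

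Genes of the glucocorticoid response were called in 4 of 19 cases, all higher, with a median change of 0.107. Sgk1, a kinase induced by glucocorticoids, had 10.28, 9.19, 10.56, 11.13 and 10.18 in injection vehicle arrays, against 9.15, 9.52, 9.18, 8.95 and 9.47 in chow vehicle arrays. Injection vehicle array 2 lay within the chow vehicle range and the other 4 above it. The change was 1.01 ± 0.23 (2.02-fold, limma adjusted p = 0.00318). Pdk4, which shuts off pyruvate dehydrogenase, had 5.88, 5.10, 6.64, 7.04 and 5.81 in injection vehicle arrays, against 5.18, 5.06, 5.27, 5.12 and 5.53 in chow vehicle arrays (change 0.86 ± 0.25, 1.82-fold, limma adjusted p = 0.0169). Nfkbia, the inhibitor of NF-kappaB, had 7.57, 7.44, 8.16, 8.48 and 8.23 in injection vehicle arrays, against 7.18, 7.46, 7.14, 7.38 and 7.45 in chow vehicle arrays (change 0.65 ± 0.18, 1.57-fold, limma adjusted p = 0.0149). For all 3, injection vehicle array 4 was highest and array 2 lowest. The clock gene Per1 rose by 0.35 ± 0.09 (limma adjusted p = 0.00906), with 8.49, 8.74, 8.58, 8.81 and 9.09 in injection vehicle arrays, against 8.31, 8.45, 8.44, 8.21 and 8.53 in chow vehicle arrays. Other targets did not pass: Tsc22d3 had a change of 0.32 ± 0.12 (limma adjusted p = 0.0529) and Ddit4 one of 0.34. Fkbp5, the receptor's co-chaperone, had a change of -0.09 ± 0.10 on its brighter probe set (limma adjusted p = 0.549) and fell by 0.40 ± 0.09 on the other (limma adjusted p = 0.00281). Without injection vehicle array 4, only 2 of the 19 were called. Myelin markers had a mean level of 9.59, 8.94, 9.63, 9.75 and 8.91 in injection vehicle arrays against 9.14 to 9.45 in chow vehicle arrays. Within the injection vehicle group they were lowest in arrays 2 and 5, as were Sgk1 and Pdk4. Nfkbia and Per1 did not follow this order, with array 5 high for both (8.23 and 9.09). The part of the myelin markers in the Sgk1 result was not tested.

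None of 20 immediate early genes was called higher on its brightest probe set, and 2 fell, with a median change of -0.11. Other probe sets of Jun and Nr4a3 fell, by 0.31 ± 0.08 and 0.34 ± 0.11, while their brightest were not called. Dusp6, a phosphatase of the ERK kinases, went both ways: its brightest probe set fell by 0.78 ± 0.14 (limma adjusted p = 0.0003), another rose by 0.42 ± 0.10 with no overlap of the groups (limma adjusted p = 0.00524), and the last had a change of 0.34 and was not called. Ier5 fell by 0.31 ± 0.11 (limma adjusted p = 0.046). Fos had 9.99, 9.65, 9.23, 9.18 and 9.96 in injection vehicle arrays, against 9.79, 9.95, 10.35, 9.58 and 9.62 in chow vehicle arrays, and the groups overlapped (change -0.26 ± 0.22, limma adjusted p = 0.452). Arc had a change of -0.18 ± 0.25 and Egr1 one of -0.01 ± 0.11. Among neurotrophins and secreted factors 2 of 22 were called, both lower: Vgf, a neuropeptide precursor, fell by 0.40 ± 0.07, and Bdnf, the brain-derived neurotrophic factor, had 8.32, 8.57, 8.39, 8.17 and 8.32 in injection vehicle arrays, against 8.61, 8.87, 8.89, 8.63 and 8.70 in chow vehicle arrays (change -0.39 ± 0.10, limma adjusted p = 0.0103). The second Bdnf probe set had a change of -0.17 ± 0.08 and was not called (limma adjusted p = 0.168).

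Chaperones of the endoplasmic reticulum and genes of the unfolded protein response had 11 of 25 members lower and 1 higher (median change -0.0508), the largest share of falls among the 32 lists. Members that fold or modify proteins in the lumen made up most of the falls: Hyou1, Pdia4, Creld2, Dnajb11, Sdf2l1, Pdia3, Manf, Hspa5, Pdia6 and Calr, with Ddit3, a transcription factor of the same response, as the eleventh. Hyou1 had 7.50, 7.64, 7.63, 8.35 and 7.60 in injection vehicle arrays, against 7.998, 8.28, 8.76, 8.53 and 8.53 in chow vehicle arrays, with array 4 of the injection vehicle group inside the chow vehicle range (change -0.68 ± 0.13, 1.60-fold lower, limma adjusted p = 0.000776). Its second probe set fell by 0.55 ± 0.16 (limma adjusted p = 0.0205). Pdia4, a disulphide isomerase, had 8.09, 7.86, 8.43, 8.23 and 8.10 in injection vehicle arrays, against 8.43, 8.74, 8.70, 8.62 and 8.74 in chow vehicle arrays, and array 3 of the injection vehicle group met the lowest chow vehicle array (change -0.50 ± 0.09, 1.42-fold lower, limma adjusted p = 0.000288). Hspa5, the main chaperone of the lumen, had a small fall, with 11.18, 11.30, 11.35, 11.24 and 11.42 in injection vehicle arrays, against 11.41, 11.66, 11.63, 11.34 and 11.47 in chow vehicle arrays (change -0.21 ± 0.07, 1.15-fold lower, limma adjusted p = 0.0378). Herpud1, a membrane component of protein disposal, rose by 0.18 ± 0.05. The regulators Atf4, Atf6 and Xbp1 had changes of -0.03, 0.00 and -0.04 and were not called. The list gave 12 falls and 0 rises with arrays centred on their medians, and 8 falls and 1 rise with the hybridisation controls as a covariate, chosen after seeing the data.

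The endoplasmic reticulum stress element, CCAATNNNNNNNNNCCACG on either strand, is the sequence through which Atf6 acts, and it was looked for in the RefSeq promoters of rat genes (build GRCr8, 250 bases before to 50 after the start). It stood in 22 of 33469 promoters (0.0657%), and 7 of the 20 list genes with a promoter held it: Hspa5, Hsp90b1, Creld2, Canx, Xbp1, Dnajc3 and Calr. Of these 7, Hspa5, Creld2 and Calr fell (Creld2 by 0.32 ± 0.08 and Calr by 0.19 ± 0.06) and 4 were not called on the brightest probe set, although 2 further probe sets of Canx rose, by 0.61 ± 0.09 and 0.32 ± 0.05. Of the 17 genes with the element that are on the array, 3 were called lower and 1 higher, beside 13.4% lower and 5.16% higher over all genes. These counts are near those shares. A match is a description and not a site or a cause. The promoters of the 3 genes that fell are shown because they carry the element among the members called, with the element in capitals, 5′ to 3′ on the strand of the gene. They are chr3:38452766-38453065 (plus strand) for Hspa5, chr7:121789134-121789433 (plus strand) for Creld2 and chr19:40213117-40213416 (plus strand) for Calr, and the elements begin at -43, -145 and -232 from the start.
Hspa5: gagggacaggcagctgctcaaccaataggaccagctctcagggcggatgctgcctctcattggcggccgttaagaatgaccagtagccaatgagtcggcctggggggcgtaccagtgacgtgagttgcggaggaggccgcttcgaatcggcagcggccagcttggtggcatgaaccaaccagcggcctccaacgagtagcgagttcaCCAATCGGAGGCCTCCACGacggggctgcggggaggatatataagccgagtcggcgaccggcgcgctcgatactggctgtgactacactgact
Creld2: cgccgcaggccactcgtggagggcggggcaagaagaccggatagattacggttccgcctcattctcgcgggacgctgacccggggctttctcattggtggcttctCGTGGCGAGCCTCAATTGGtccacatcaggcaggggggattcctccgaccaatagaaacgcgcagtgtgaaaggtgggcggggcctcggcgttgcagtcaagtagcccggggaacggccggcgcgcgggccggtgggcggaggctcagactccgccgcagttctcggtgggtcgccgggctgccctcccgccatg
Calr: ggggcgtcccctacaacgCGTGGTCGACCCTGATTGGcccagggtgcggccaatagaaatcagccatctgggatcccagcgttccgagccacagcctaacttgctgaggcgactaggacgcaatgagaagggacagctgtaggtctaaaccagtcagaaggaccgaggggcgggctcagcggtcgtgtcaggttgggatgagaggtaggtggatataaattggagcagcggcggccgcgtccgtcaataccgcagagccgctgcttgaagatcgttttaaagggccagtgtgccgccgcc

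Heat shock genes of the cytosol, listed with the mitochondrial chaperonins Hspe1 and Hspd1, gave 4 falls among 15 and no rise (median change -0.0878). Hspb1, a small heat shock protein, fell by 0.57 ± 0.17, Cryab, a crystallin chaperone, by 0.49 ± 0.17, the co-chaperone Dnajb1 by 0.24 ± 0.05 and the mitochondrial chaperonin Hspe1 by 0.20 ± 0.04. Only Dnajb1 and Hspe1 had groups that did not overlap. The other probe set of Dnajb1 had a change of 0.01 ± 0.07 and was not called (limma adjusted p = 0.961). The proteasome list gave 9 falls and 1 rise among 30 (median change -0.0882). Psmd12, a subunit of the regulatory lid, had 9.37, 9.39, 9.35, 9.34 and 9.34 in injection vehicle arrays, against 9.91, 10.01, 9.98, 9.96 and 10.02 in chow vehicle arrays, with no overlap (change -0.62 ± 0.06, 1.53-fold lower, limma adjusted p = 1.28e-07). Psmc6, Psmd1 and Psmd13 fell by 0.36 ± 0.11, 0.32 ± 0.07 and 0.30 ± 0.06. All 4 belong to the regulatory particle that feeds proteins into the proteasome core, and the groups did not overlap on these probe sets. Further probe sets of Psmc6, with changes of -0.22 and -0.19 and overlapping groups, were not called (limma adjusted p = 0.155 and 0.337).

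Circadian clock genes were called in 9 of 20 cases, 7 higher and 2 lower (median change 0.145). Rora, an activator of the clock loop, had 8.45, 8.39, 8.41, 8.64 and 8.56 in injection vehicle arrays, against 7.73, 7.55, 7.76, 7.91 and 7.51 in chow vehicle arrays, with no overlap (change 0.80 ± 0.10, 1.74-fold, limma adjusted p = 4.75e-06). Nr1d2 had 10.20, 10.21, 10.22, 10.25 and 10.27 in injection vehicle arrays, against 9.87, 9.81, 9.71, 9.79 and 9.81 in chow vehicle arrays on its brightest probe set (limma adjusted p = 2.24e-05). Bhlhe40, a repressor of the loop, had 8.12, 9.27, 8.05, 8.85 and 9.18 in injection vehicle arrays, against 9.35, 9.46, 9.56, 9.28 and 9.13 in chow vehicle arrays, and the groups overlapped (change -0.66 ± 0.18, limma adjusted p = 0.00969). Rorb, Hlf, Per1, Tef and Bhlhe41 also rose, by 0.26 to 0.55, and Nfil3 fell by 0.35, but a second Hlf probe set fell by 0.74 ± 0.08 (limma adjusted p = 1.40e-06). The core factors Clock, Bmal1, Cry1, Cry2 and Per2 were not called on their brightest probe sets, with changes of -0.14, -0.20, -0.11, 0.03 and 0.30, nor was the output gene Dbp (0.38 ± 0.14, limma adjusted p = 0.0622). Another Clock probe set rose by 0.59 ± 0.10. With arrays centred on their medians the list gave 6 rises and 5 falls. The E-box CACGTG, to which the Clock and Bmal1 pair binds, stood in 4 of the 17 clock promoters with a RefSeq sequence (Nr1d1, Tef, Bhlhe40 and Bhlhe41), beside 6.42% of all promoters. The hour at which tissue was taken is not given in the labels.

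Genes of excitatory synapses were called in 12 of 30 cases, 9 higher and 3 lower (median change 0.13). The metabotropic receptors Grm3, Grm5 and Grm7 rose by 0.80 ± 0.08, 0.92 ± 0.18 and 0.72 ± 0.12, and the ionotropic subunits Gria2 and Grin2a by 0.49 and 0.45. Grm5 had 9.11, 9.32, 9.39, 9.62 and 9.35 in injection vehicle arrays, against 8.36, 7.82, 8.79, 8.46 and 8.74 in chow vehicle arrays, with no overlap. Grin1, the obligate NMDA receptor subunit, fell by 0.37, and Grm4 by 0.33. Shank1, Shank2, Shank3 and Homer1, scaffolds of the postsynaptic density, were not called on their brightest probe sets. Other probe sets were: one of Shank1 fell by 0.58 ± 0.11, and of Homer1 one rose by 0.37 ± 0.12 and one fell by 0.86 ± 0.13. The list mean was 8.91 to 9.03 in injection vehicle arrays and 8.70 to 8.87 in chow vehicle arrays, and with arrays centred on their medians the counts were 8 rises and 5 falls.

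GABA receptor genes split, with 4 rises and 3 falls among 13 (median change 0.00224). Gabrg1, Gabra4, Gabra3 and Gabra2, subunits of the ionotropic receptor, rose, Gabrg1 with 8.43, 8.14, 8.402, 8.86 and 8.68 in injection vehicle arrays, against 7.28, 7.36, 7.70, 7.69 and 7.33 in chow vehicle arrays (change 1.03 ± 0.12, 2.04-fold, limma adjusted p = 1.59e-06). Gabbr2, a subunit of the metabotropic receptor, had 10.62, 10.99, 10.58, 10.68 and 10.65 in injection vehicle arrays, against 11.49, 11.39, 11.57, 11.42 and 11.52 in chow vehicle arrays, a clear gap (change -0.77 ± 0.06, 1.71-fold lower, limma adjusted p = 1.85e-08). The second Gabbr2 probe set had a change of -0.12 ± 0.11 and was not called. Gabrb2 went both ways: its brighter probe set fell by 0.14 ± 0.05 and the other rose by 1.10 ± 0.28, with 8.01, 7.68, 6.927, 8.64 and 6.82 in injection vehicle arrays, against 7.31, 6.04, 6.63, 6.32 and 6.27 in chow vehicle arrays. Gad2, an enzyme of GABA synthesis, had 7.92, 7.55, 8.11, 8.49 and 7.56 in injection vehicle arrays, against 6.56, 7.09, 6.86, 7.25 and 6.85 in chow vehicle arrays (change 1.01 ± 0.17, 2.01-fold, limma adjusted p = 0.000201).

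Release machinery of synaptic vesicles gave 8 rises and 1 fall among 34 (median change 0.00161). Syt1, the calcium sensor of release, had 10.68, 10.52, 10.67, 10.78 and 10.57 in injection vehicle arrays, against 9.68, 10.06, 9.81, 10.35 and 9.65 in chow vehicle arrays, with no overlap (change 0.73 ± 0.13, 1.66-fold, limma adjusted p = 0.00039). The active zone proteins Rims1 and Pclo rose by 0.68 ± 0.10 and 0.49 ± 0.10, while Bsn, a close relative of Pclo, fell by 0.16. Snap25, Stx1a, Syn1 and Vamp2 were not called. With arrays centred on their medians the list gave 6 rises and 5 falls. Voltage-gated ion channels were called in 15 of 48 cases, 7 higher and 8 lower (median change -0.0163). Cacnb4, a calcium channel beta subunit, had 8.36, 8.16, 7.94, 8.57 and 7.89 in injection vehicle arrays, against 7.24, 7.18, 6.83, 7.33 and 6.49 in chow vehicle arrays (change 1.17 ± 0.14, 2.25-fold, limma adjusted p = 5.26e-06). The potassium channel subunits Kcnb2 and Kcnq3 rose by 0.84 ± 0.11 and 0.80 ± 0.11, the sodium channels Scn3a, Scn8a and Scn2a by 0.51, 0.35 and 0.25, and Cacng2 and Kcnq5 fell by 0.48 and 0.31.

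Splicing factors gave 10 rises and 0 falls among 32, with a median change of 0.0421. The helicase Ddx17 rose by 0.54 ± 0.08, Srsf6 by 0.40 ± 0.05, Rbm25 by 0.37 ± 0.07 and Srsf7 by 0.28 ± 0.10. Further probe sets of Srsf6, with changes of 0.10 and 0.21, were not called (limma adjusted p = 0.355 and 0.0919). Sf3b1 was not called on its brightest probe set, but others rose by 1.19 ± 0.11 and 0.89 ± 0.07. The kinases Clk1 and Clk4, which phosphorylate splicing factors, rose by 0.28 and 0.22. The one-sidedness did not hold under another scaling: with arrays centred on their medians the list had 6 rises and 7 falls and a median of 0.000808. Subunits of oxidative phosphorylation gave 3 rises and 7 falls among 39 (median change -0.0399), all small, led by the complex I subunits Ndufa2 (-0.30 ± 0.05) and Ndufs1 (-0.20 ± 0.06). Cytosolic ribosomal proteins gave 1 rise and 1 fall among 27. In cholesterol synthesis 4 of 21 rose and none fell, led by Insig1, a sterol sensor (0.35 ± 0.07), although the median change of the list was -0.0484 and the counts with arrays centred on their medians were 3 rises and 3 falls. Hypoxia and glycolysis genes gave 2 rises and 3 falls among 22, with Hif1a, the hypoxia factor, up by 0.26 ± 0.06 and P4ha1, a collagen hydroxylase, down by 0.39 ± 0.07.

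Immune lists held few calls on their brightest probe sets. Among 31 inflammatory mediators 2 rose, Nfkbia and the interleukin receptor Il1r1 (0.47 ± 0.14). Other probe sets of Il1r1, with changes of -0.18 and 0.09, were not called (limma adjusted p = 0.171 and 0.555). None of the 27 interferon and antigen presentation genes was called by limma on its brightest probe set (Ifit1 had the largest change, 0.31 ± 0.17, adjusted p = 0.21), while another probe set of Ifit2 rose by 0.52 ± 0.10. Among microglia markers 1 of 22 was called on its brightest probe set, Cx3cr1, a chemokine receptor, which rose by 0.25 ± 0.07. The dimmer probe sets of P2ry12 and Ptprc rose by 0.88 ± 0.13 and 0.37 ± 0.09. Their brighter ones, with changes of 0.08 and -0.06, were not called. Markers of cortical principal neurons were called in 11 of 31 cases, 6 higher and 5 lower, and 3 higher and 6 lower with arrays centred on their medians. They included the transcription factors Tbr1, of deep layers, and Foxp1, which rose by 0.49 ± 0.17 and, on the brightest of 5 probe sets, 0.43 ± 0.08, and Cux2 and Lamp5, markers of upper layers, which fell by 0.37 and 0.39. A further Foxp1 probe set fell by 0.15 ± 0.05 (limma adjusted p = 0.0458), and the other 3, with changes of -0.16, -0.10 and 0.22, were not called. Their mean level ranged over 9.26 to 9.41 in injection vehicle arrays and 9.30 to 9.36 in chow vehicle arrays. Interneuron markers were called in 3 of 18 cases, with Gad2 higher and the peptide Vip and the matrix protein Reln lower by 0.29 ± 0.09 and 0.44 ± 0.09. The dimmer probe set of Reln had a change of 0.19 ± 0.11 and was not called (limma adjusted p = 0.249). Astrocyte markers had 1 rise and 2 falls among 23 on their brightest probe sets, and 3 rises and 0 falls with the hybridisation controls as a covariate. Further probe sets of Slc1a3, Gja1, Glul and Plpp3 rose, although the brightest of each was not called. The changes were 0.82 ± 0.09 for Slc1a3, 0.79 ± 0.12 for Gja1, 0.47 ± 0.10 and 0.38 ± 0.07 for Glul, and 0.36 ± 0.09 for Plpp3. The water channel Aqp4 went both ways: its brightest probe set fell by 0.33 ± 0.10, and the other 2 rose by 0.43 ± 0.14 and 0.41 ± 0.13 (limma adjusted p = 0.0312 and 0.0342). Myelin markers had no call among 26 on their brightest probe sets. Other probe sets of Mbp, the myelin basic protein, Ermn and Tspan2 rose, by 0.56 ± 0.11, 0.70 ± 0.22 and 0.51 ± 0.17. Endothelial markers had 1 call in each direction among 26, and blood cell markers 1 fall among 15. Markers of other regions gave 1 rise among 19 (medium spiny neurons), 2 falls among 16 (hippocampal neurons) and 2 rises among 20 (thalamus and basal forebrain), and 1 of 4 sex-linked genes was called higher.

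Markers of tissues that line or cover the brain varied between arrays. The mean level of 18 choroid plexus markers was 5.61 to 5.88 in injection vehicle arrays 1 to 4 and 6.66 in array 5, against 5.54 to 5.72 in chow vehicle arrays. Ttr, the transthyretin of the choroid plexus, had 8.20, 6.99, 7.90, 6.86 and 12.74 in injection vehicle arrays, against 5.98, 6.68, 6.76, 6.25 and 6.69 in chow vehicle arrays. The lowest injection vehicle array lay above the highest chow vehicle array, but the change of 2.06 ± 0.77 did not pass (limma adjusted p = 0.0645). None of the 18 was called by limma with all arrays, while 1, 3, 0, 2 and 1 were called higher when injection vehicle array 1, 2, 3, 4 or 5 was left out. Meningeal markers gave 1 fall among 23, of Igfbp6 (-0.83 ± 0.21). The other probe set of Igfbp6 had a change of -0.53 ± 0.19 and was not called (limma adjusted p = 0.0543). On their brightest probe sets, 19 of the 23 meningeal markers had a positive change (median 0.288), and none was called higher. A further probe set of Igfbp5 rose by 0.75 ± 0.15. Ependymal markers gave 3 falls among 13, the cilia genes Tekt1, Tekt4 and Ccdc113, by 0.45 ± 0.12, 0.36 ± 0.08 and 0.43 ± 0.14. Of the choroid plexus markers 15 of 18 had a positive change (median 0.16), with medians of 0.555 in the hippocampus and 0.542 in the striatum and no call there. The mean of the meningeal markers was 7.08, 6.82, 7.67, 6.62 and 7.41 in injection vehicle arrays, against 6.82, 7.15, 6.66, 6.66 and 7.07 in chow vehicle arrays, and that of the ependymal markers was 5.38 to 5.64 in injection vehicle arrays against 5.45 to 5.84 in chow vehicle arrays, both with overlap. The part of these levels in the other results was not tested.

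The same separation was looked for in other arrays. In the cortex, lamotrigine minus LiCl sets the other 5 arrays of the injection arm against the other 5 of the chow arm, and each drug is then confounded with its arm. Both cortex comparisons came from 1 fit, so they share the estimate of the spread of each probe set. Their calls are therefore not independent of each other. Of the 31042 probe sets 5540 were called (17.8%), 3504 higher and 2036 lower in lamotrigine. Both comparisons called 2696, with 2680 in the same direction (45.6% of the vehicle calls and 48.4% of the drug calls) and 16 in opposite directions. Of the probe sets called between the vehicles, 89% had the same sign between the drug groups, beside 65.9% of all probe sets. Among the 24 genes of largest change, 23 were called in the same direction there on the same probe set, and Ptprd was the exception (0.26). Xiap differed by 1.78, Nipsnap2 by -1.86 and Tbl1x by 1.14 in lamotrigine minus LiCl. Some members of the lists did not recur: Hyou1 had a change of -0.13 between the drug groups against -0.68 between the vehicles, and Bdnf one of 0.11 against -0.39, differences that were not tested. On the brightest probe sets of 14217 genes, 1288 were called higher and 1020 lower in lamotrigine. Proteasome subunits gave 6 higher and 1 lower, and endoplasmic reticulum chaperones 4 higher and 6 lower. Clock genes gave 9 higher and 0 lower, and glucocorticoid response genes 3 higher and 0 lower.

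In the hippocampus 5747 probe sets were called between injection vehicle and chow vehicle (18.5%), and 2464 were also called in the same direction in the cortex (41.9% of cortex calls and 42.9% of hippocampus calls), against 10 in opposite directions. In the striatum 2119 were called (6.83%), and 1608 were shared in the same direction (27.4% of cortex calls and 75.9% of striatum calls), against 2 in opposite directions. By the numbers in the sample descriptions, the striatum vehicle arrays come from the same animals as those of the cortex. The hippocampus arrays come from the same injection vehicle animals and in part from the same chow vehicle animals. The overlaps are thus repeat measures of the same animals in large part, and not independent. All 24 genes of largest change were called in the same direction in both other regions on the same probe set. The brighter probe set of Dync1li1, which is not that one, was called higher in the hippocampus (0.22 ± 0.05) and the striatum (0.39 ± 0.07). In all 3 regions 1069 probe sets were called in 1 direction, 750 higher and 319 lower, and 921 of them, from 611 genes, were also called that way between the drug groups of the cortex. The members of largest mean change among these were Camk2a, Xiap, Pik3r1, Ro60, Peli2 and Tbl1x. Camk2a differed by 1.79 ± 0.37 in cortex, 2.01 in hippocampus and 1.14 in striatum, and Pik3r1 by -1.66 ± 0.26 in cortex, -1.47 in hippocampus and -1.48 in striatum. Several lists had other counts in the hippocampus, where 9.25% of all genes were called higher and 7.27% lower on their brightest probe sets: chaperones of the endoplasmic reticulum gave 5 rises and 1 fall, proteasome subunits 8 rises and 0 falls, and oxidative phosphorylation subunits 10 rises and 0 falls. In the striatum, where 1.93% were called higher and 3.81% lower, these lists gave 0 rises and 2 falls, 1 rise and 0 falls, and no call.

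**Figure D5:**
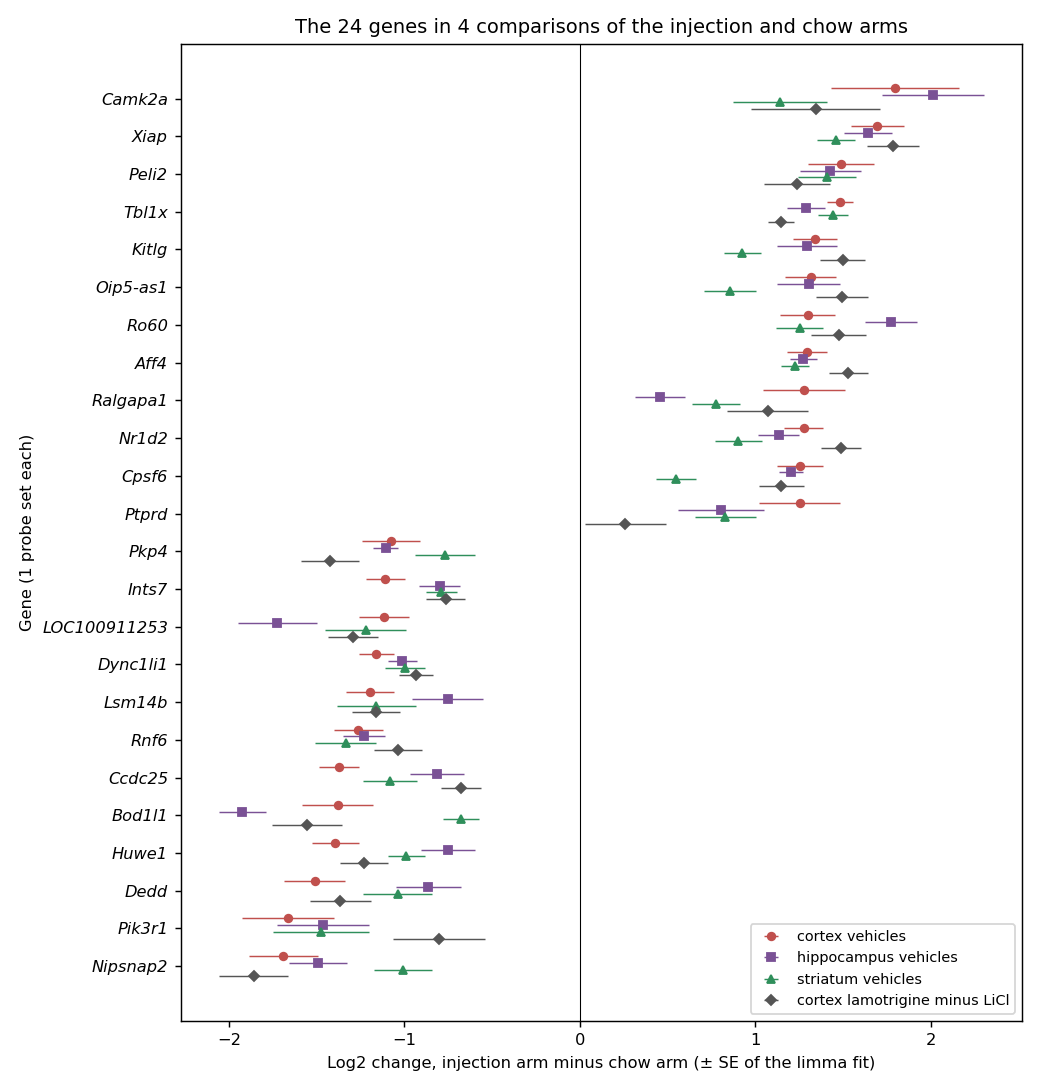
Log2 change ± SE of the limma fit for the 24 genes of largest change, injection arm minus chow arm, between the vehicles of cortex, hippocampus and striatum and for lamotrigine minus LiCl in cortex. All points of a gene lie on the same side of 0, and Ptprd in lamotrigine minus LiCl (0.26) lies nearest to 0.

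Whether the vehicle difference itself differed between regions was tested in 1 fit of all 60 arrays with the animal as a random block, although the animal numbers in the chow arm run differently in the hippocampus than elsewhere. Cortex and hippocampus differed at 357 probe sets (1.15%), of which 210 were called in the cortex (3.57% of cortex calls), and cortex and striatum differed at 12 (0.0387%), of which 9 were called in the cortex (0.153%). These counts depended on the setting: for cortex against hippocampus, 39 were called without the animal block and 50 after quantile normalization. Hars1, a tRNA synthetase, fell by 0.48 ± 0.06 in the cortex on its brighter probe set and had a change of 0.05 in the hippocampus (difference -0.53, limma adjusted p = 0.0076). On its other probe set the difference was -0.23 and was not called (limma adjusted p = 0.42). Fip1l1, a factor of mRNA polyadenylation, fell by 0.29 ± 0.06 in the cortex and differed from both regions. Calcrl rose by 1.06 ± 0.11 in the cortex on one probe set and had a change of 0.36 in the striatum (difference 0.71, limma adjusted p = 0.019). Cpsf6, another polyadenylation factor, rose by 1.25 ± 0.13 in the cortex on one probe set and had a change of 0.55 in the striatum (difference 0.70, limma adjusted p = 0.0271). No other probe set of Cpsf6 was called for this difference. Among the list members named above and chosen after their values were seen, Psmd12 fell by 0.62 ± 0.06 in the cortex, against a change of -0.20 in the hippocampus (limma adjusted p of the difference = 0.0359), Psmd13 fell by 0.30 ± 0.06 in the cortex, against a change of 0.03 in the hippocampus (limma adjusted p of the difference = 0.0253), and Kcnb2 rose by 0.84 ± 0.11 in the cortex, against a change of 0.25 in the hippocampus (limma adjusted p of the difference = 0.0312).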

How the data were processed

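RNA from 20 cortex, 20 hippocampus and 20 striatum samples was measured on Affymetrix arrays. The intensities were deposited after RMA (background correction, quantile normalization and probe set summary) in R 2.7.2, as the submitters' processing notes name it; their log2 was taken with no pseudocount. Of 31099 probe sets, 57 controls were left out of the tests. The platform annotation gave 20826 probe sets 1 symbol (14217 genes), 436 several and 9780 none.

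Groups came from the labels. limma 3.58.1 (R 4.3.3) fitted the 20 cortex arrays with 1 mean per group and an intensity trend, and p-values were adjusted (Benjamini-Hochberg) over 31042 probe sets. Hippocampus and striatum were fitted likewise, and differences between regions in 1 fit of 60 arrays with the animal as a random block (correlation 0.133). On data simulated from these arrays, the fit was tested for its recovery of known changes. Control measures were compared by two-sided exact permutation of the 5 against 5 arrays (252 splits). Median intensity was 95.6 to 101 per array, and the number of arrays limits the precision.

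Named genes were the 12 largest rises and 12 largest falls whose groups did not overlap, 6 per direction with every probe set called 1 way, 6 with opposite calls, up to 4 called members per list, 6 shared by all comparisons and 6 per region difference; further list members were named after their values were seen. The members and lists were chosen with earlier results of these data known. Alternatives were other scalings, filters, covariates, array weights, blocks and left-out arrays; the hybridisation covariate and leaving out the 2 arrays that stood apart were chosen after seeing the data.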

Additional observations from a re-analysis of the deposited data

Results flagged for a closer look

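In 29 of 392 groups of 5 values tested (7.4%), 1 array lay apart from the other 4 by Dixon's criterion; chance flags about 1 in 20 groups. Injection vehicle array 4 was the array in 9 of the 29. It was highest for Ralgapa1 (6.938, the others 5.374 to 5.699), Nipsnap2 (6.987, the others 5.43 to 5.801), Huwe1 (5.552), Bod1l1 (7.68), Rnf6 (7.922), Ints7 (7.68), Hyou1 (8.351) and Ndufs1 (10.66), and lowest for Tbl1x on the probe set that fell (8.102). For all of these but Ralgapa1 and Tbl1x the array lay towards the chow vehicle group, and what sets this array apart was not tested.

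Injection vehicle array 5 was the array in 6. It was highest for the choroid plexus genes Ttr (12.74, the others 6.855 to 8.201) and Sostdc1 (7.489, the others 4.391 to 4.745) and for the mean of the choroid plexus list (6.657), and lowest for Gabra4 (8.208), Rarb (6.627) and Tekt1 (5.529).

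Injection vehicle array 1 was lowest for the hybridisation controls (9.367) and Atp1b2 (10.24) and highest for Calcrl (5.754). Injection vehicle array 3 was highest for the interquartile range of log2 values (3.577) and the neurotrophin list mean (8.477) and lowest for Psmc6 (8.836), and injection vehicle array 2 was highest for Gabbr2 (10.99). Among chow vehicle arrays, array 5 was highest for the hybridisation controls (12.28) and lowest for Hif1a (9.669), array 4 was lowest for Cbx1 (8.353) and highest for the GABA receptor list mean (9.108), array 1 was lowest for Egln3 (7.879), array 2 for Igfbp6 (7.209), and array 3 was highest for Ndufb5 (11.43).

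The vehicle difference differed between regions, by limma's interaction test, for these probe sets of smallest p, and each value is that of a single probe set. Cortex minus hippocampus was -0.3566 for Fip1l1, 0.9762 for Cabp1, -0.527 for Hars1, 0.612 for Pax2 and 0.4693 for Lipf (adjusted p = 0.0076 each) and 0.581 for Eln (adjusted p = 0.00767). Cortex minus striatum was -0.3255 for Fip1l1 and 0.7063 for Calcrl (limma adjusted p = 0.019 each), -0.5811 for Eif3a and 0.7035 for Cpsf6 (limma adjusted p = 0.0271 each), 1.204 for Shisa3 (limma adjusted p = 0.0318) and 0.5499 for Ptprc (limma adjusted p = 0.0425). Further probe sets of Cabp1, Eln and Hars1 were not called for cortex minus hippocampus (0.13, 0.08 and -0.23, limma adjusted p = 0.658, 0.794 and 0.42). Those of Eif3a and Ptprc were not called for cortex minus striatum (-0.02 and -0.001, limma adjusted p = 0.976 and 0.999), nor was any other of Cpsf6.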

How the results depend on the processing

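The number of probe sets called between the vehicles was 5875 and ranged from 4059 to 7061 over 21 alternatives, and from 4823 to 5498 with 1 array left out. Of the 144 called probe sets named by the rules, 110 kept their call under every alternative that tested them, and of 2998 values 187 lost it and none reversed. One Tbl1x probe set, not called at -0.12, had a change of 0.01273 with the hybridisation covariate, chosen after seeing the data. The 144 called list genes ranged from 111 to 170. Differences between regions moved most. Cortex against hippocampus (357) gave 50 after quantile normalization, 188 with centred arrays, 39 with no animal block and 80 to 456 with 1 array left out. Leaving out injection vehicle replicate 4 gave 137 and replicate 5 gave 88; leaving out chow vehicle replicate 2, 4 or 5 gave 158, 80 or 118. Cortex against striatum (12) gave 6 with dim probe sets left out, 6 with no animal block and 2 to 65 with 1 array left out (2 without injection vehicle replicate 1, 65 without replicate 4). With 1 array left out, the control differences ranged over -0.799 to -0.333 (hybridisation), -0.355 to -0.178 (poly-A), -0.0703 to -0.0432 (Gapdh), 0.143 to 0.246 (Actb), -0.0524 to -0.0327 (interquartile range) and 0.034 to 0.0555 (median). With the replicate number as a block 5912 were called (2789 higher and 3123 lower). Same-numbered arrays had deviation correlations of -0.0787 to 0.0651, so the numbers were not taken to pair the samples. The causes of these changes were not tested. The number of arrays, 5 per group, limits the precision.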
